A study of Mus musculus with 2 samples.

Results

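Gfi1, Gfi1b and Gata3 encode 3 transcription factors of blood cell development, and their transcripts were compared between 1F9 cells carrying active E47-ER and 1F9 cells carrying the control fusion bHLH-ER, in a study that looked for genes on which E47 acts. The genes were chosen by name, and selected on their difference between these same arrays, which was already known. Each has 1 named probe among the 20289 on the array, of which 9940 are unnamed in the annotation used here. All 3 are among the 5563 named genes called measured here, whose log2 intensity, averaged over the 2 arrays, was at least that of the middle probe (the level limit, an intensity of about 1.03). 1F9 is a mouse thymoma line without functional E2A (E2A -/-), so both groups lack the E2A proteins E12 and E47. One retrovirus encoded E47 joined to part of the oestrogen receptor (ER47TX in the sample title, E47-ER here), and the other the bHLH region fused likewise without the N-terminal transactivation domain (bHLHERTX, bHLH-ER here). Both groups were given 4-hydroxytamoxifen for 6 hours from 1 day after infection and transduced cells were isolated on magnetic beads through human CD25, a marker made from both viruses. RNA of each construct was hybridised to 1 Cy3 array, so there is no replicate check, no test can be made and the number of arrays limits the precision. The free-text description of both samples names the E47 fusion, so the constructs are told apart by the titles. The line is a single tumour line and no array of uninfected or untreated cells was analysed here, so a difference cannot be assigned to the one construct or the other.

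GFI1 and GFI1B are closely related zinc-finger repressors. Each binds DNA containing the core AATC through zinc fingers at its C-terminal end, and each has an N-terminal SNAG domain that recruits the histone demethylase LSD1 with CoREST proteins and histone deacetylases. GFI1 acts in stem cells, T cell precursors and granulocyte precursors and GFI1B mainly in red cell and platelet precursors, and each is known to repress its own gene and that of the other. GATA3 is a zinc-finger activator and repressor that early thymocytes need to enter the T lineage, and it acts again in CD4 T cells and in T helper 2 cells. E47 binds E boxes, sites with the letters CANNTG, and CAGGTG is a well-known high-affinity form.

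The stretches before the annotated transcription starts of the genes are shown because the constructs share the DNA-binding region of an E box factor. They are the 250 bases upstream of each start in RefSeq on GRCm38.p6, 5′ to 3′ on the minus strand, with every CANNTG in capitals. RefSeq lists 2 starts for Gfi1 in the table used and 1 each for Gfi1b and Gata3, although it annotates several transcripts of Gata3.
Gfi1, first start, chr5:107725806-107726055: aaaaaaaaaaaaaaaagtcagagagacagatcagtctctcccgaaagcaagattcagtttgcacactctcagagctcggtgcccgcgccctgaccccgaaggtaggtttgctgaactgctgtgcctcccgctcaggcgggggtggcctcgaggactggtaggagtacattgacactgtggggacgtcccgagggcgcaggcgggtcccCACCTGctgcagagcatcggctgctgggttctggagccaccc
Gfi1, other start, chr5:107724344-107724593: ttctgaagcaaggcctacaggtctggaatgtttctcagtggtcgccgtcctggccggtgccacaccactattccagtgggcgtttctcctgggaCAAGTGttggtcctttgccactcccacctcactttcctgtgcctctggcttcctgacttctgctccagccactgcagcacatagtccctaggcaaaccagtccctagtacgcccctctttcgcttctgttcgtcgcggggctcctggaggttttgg
Gfi1b, chr2:28621983-28622232: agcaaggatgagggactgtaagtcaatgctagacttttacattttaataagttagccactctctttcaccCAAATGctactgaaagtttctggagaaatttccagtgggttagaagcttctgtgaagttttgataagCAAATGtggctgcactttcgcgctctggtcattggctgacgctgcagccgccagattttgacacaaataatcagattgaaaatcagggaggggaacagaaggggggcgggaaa
Gata3, chr2:9878601-9878850: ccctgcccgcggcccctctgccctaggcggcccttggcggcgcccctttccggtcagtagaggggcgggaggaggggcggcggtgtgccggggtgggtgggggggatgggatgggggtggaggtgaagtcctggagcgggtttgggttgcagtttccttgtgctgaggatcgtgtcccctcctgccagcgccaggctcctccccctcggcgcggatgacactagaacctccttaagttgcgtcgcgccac

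The 4 stretches differ in their E boxes. Before the first Gfi1 start there is 1 E box, 42 to 37 bases upstream, and it reads CAGGTG on the other strand. Its form was found on either strand in 17.2% of 32851 upstream stretches of this length, whereas CANNTG in any form was found in 66.2%. The other Gfi1 start has 1 E box of another form, 156 to 151 bases upstream. The Gfi1b stretch has 2 E boxes, both CAAATG, and neither CAGGTG nor CAGCTG. The Gata3 stretch has no CANNTG, while a CAGCTG runs from the last base before its start to base 5 after it. Over the whole window of 300 bases, which adds 50 after the start, CAGCTG was found on either strand in 16.3% of windows. A match is a string of letters and does not show that a factor binds there.

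GFI core letters were found 4 times in the Gfi1b stretch, counting AATC on both strands, against once before the first Gfi1 start and not at all before the other Gfi1 start or in the Gata3 stretch. All 4 lie between 60 and 30 bases upstream of the Gfi1b start. This cluster is shown because GFI1B is known to repress its own gene, with the cores in capitals (AATC, or GATT where the core is on the other strand), from GRCm38.p6, minus strand.
Gfi1b, cluster, chr2:28622006-28622048: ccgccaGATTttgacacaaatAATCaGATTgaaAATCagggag
Of all 32851 upstream stretches, 69.0% held at least 1 AATC and 7.04% held 4 or more. The letters G and C make up 44.4% of the Gfi1b stretch, against 59.2% and 57.6% for the Gfi1 stretches and 70% for Gata3. None of the shares given here was matched for base composition. The Gfi1b stretch also holds 1 match to GATAA, one form of the core bound by GATA factors, 119 to 115 bases upstream. This form was found on either strand in 22.6% of stretches, and in none of the other 3 shown. Other forms of the GATA core were not searched.

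Both repressor genes were brighter and Gata3 dimmer with E47-ER. The probe for Gfi1 (Entrez gene 14581) had a deposited intensity of 2.88 with bHLH-ER and 6.29 with E47-ER. With the arrays' medians set equal, it was 2.20-fold higher, a log2 difference (E47-ER minus bHLH-ER) of 1.14. Only 49 of the 5563 measured genes had a more positive log2 difference. The probe for Gfi1b (Entrez gene 14582) went from 0.622 to 2.02, which is 3.28-fold higher or a log2 difference of 1.71. Gfi1b was the 20th of the measured genes from the top. It reached the level limit only through its E47-ER value, so it had to differ upwards to be ranked. The probe for Gata3 (Entrez gene 14462) went the opposite way, from 9.92 to 4.97, which is 1.97-fold lower or a log2 difference of -0.98. From the bottom, Gata3 was the 17th of the measured genes. Fewer cells expressing a gene and less RNA per cell cannot be told apart in these bulk samples.

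**Figure D1:**
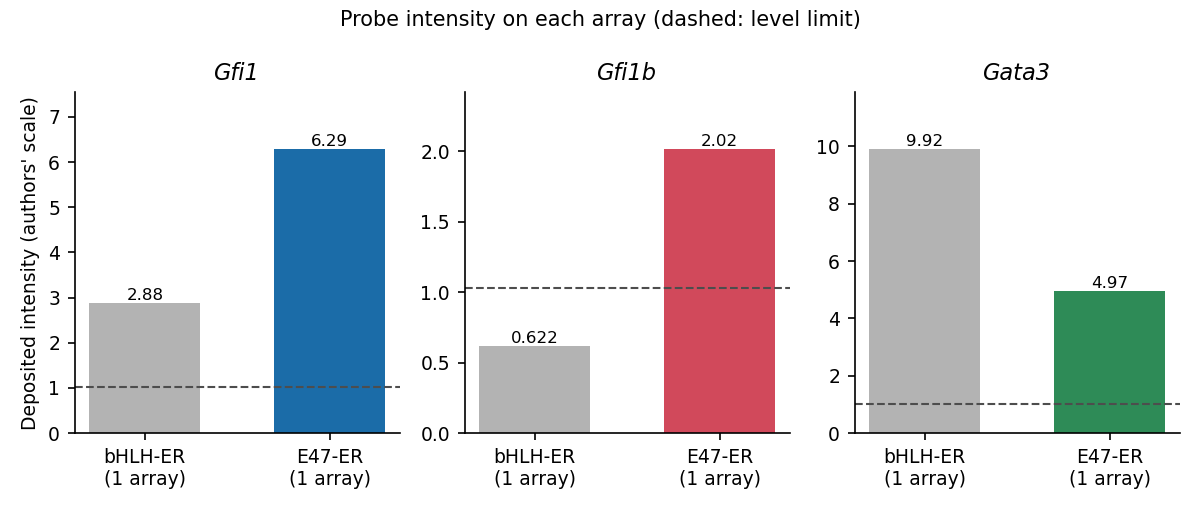
Deposited intensity (the authors' linear scale, each panel with its own axis from 0) of the probes for Gfi1, Gfi1b and Gata3 on the bHLH-ER array (grey bars) and the E47-ER array (coloured bars), 1 array each, so there are no error bars. The dashed line is the level limit of 1.03; the bHLH-ER bar of Gfi1b, at 0.622, is the one bar below it.

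These 3 values chose the genes and are given as a description. Past 2-fold there were 75 measured genes (1.35%) on the higher side and 15 (0.270%) on the lower side. Gfi1 and Gfi1b are 2 of the 75, Gfi1b only because its E47-ER value lifted it over the level limit, while Gata3 lies just short of the 15. Which side of 2-fold Gata3 falls on depends on the scaling. When the 75th percentiles of the arrays were set equal, the log2 differences of all measured genes shifted by -0.11, Gata3 stood at -1.09, past 2-fold, and Gfi1 and Gfi1b stood at 1.03 and 1.60. Under that scaling 52 measured genes (0.935%) passed 2-fold upwards and 24 (0.431%) downwards. Measured from the median log2 difference of all measured genes, 0.11, Gfi1 lay at 1.04, Gfi1b at 1.61 and Gata3 at -1.09.

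**Figure D2:**
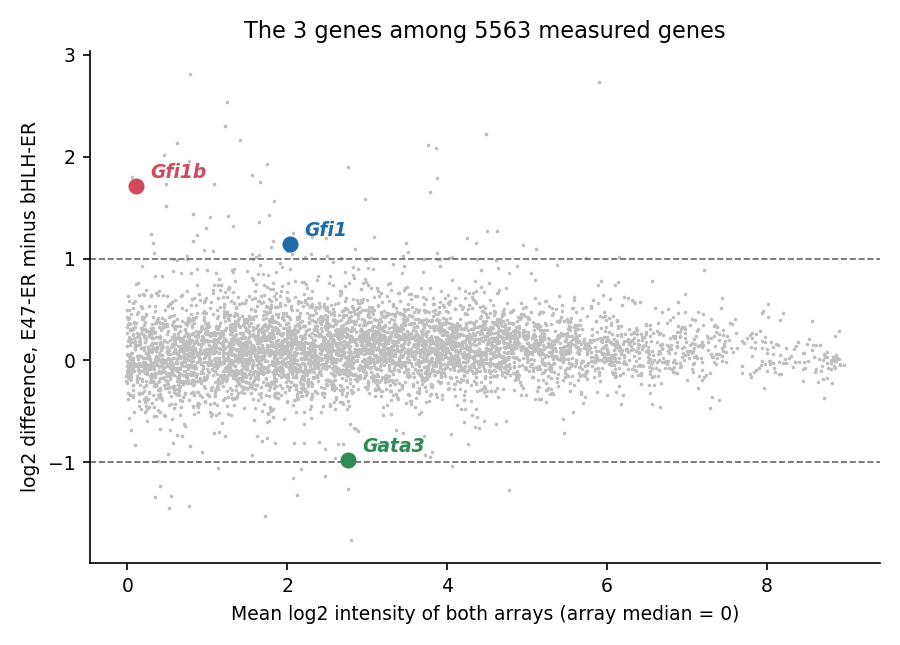
Each grey point is 1 of the 5563 measured genes, with its mean centred log2 intensity over both arrays on the horizontal axis and its log2 difference, E47-ER minus bHLH-ER, on the vertical axis; dashed lines mark 2-fold. Gfi1b (1.71) and Gfi1 (1.14) lie above the upper line, Gata3 (-0.98) lies at the lower one, and Gfi1b sits at the dim end of the range.

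The place of each probe among all probes is a guide to its signal over background. Gata3 stood at the 80.5th percentile of all probes with bHLH-ER and at the 70.7th with E47-ER. The probe for Gfi1 moved from the 63.6th to the 73.7th percentile. That for Gfi1b moved from the 42.7th to the 58.5th, and its mean log2 level exceeded the level limit by only 0.12, through its E47-ER value. Adding a pseudocount of 1 to every intensity, which shrinks the differences of dim probes, brought Gfi1b to 0.90 and Gfi1 to 0.92, both under 2-fold, and Gata3 to -0.86.

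The spread among other genes gives a scale for these values, though not an error between cultures. Of 1024 genes whose centred log2 intensity on the bHLH-ER array lay within 0.5 of that of Gfi1, the log2 differences had a robust SD of 0.28, and 19 were at least 2-fold higher. Around Gfi1b the robust SD was 0.30 over 969 genes, with 16 past 2-fold on each side. Around Gata3 it was 0.23 over 949 genes, of which 4 were at least 2-fold lower and 11 at least 2-fold higher. Different probes of one gene, the only repeat measurements on the arrays, had a pooled SD of 0.20 in their log2 differences (95% interval 0.17 to 0.25, 55 genes). Gfi1b exceeded Gfi1 by 0.57 on the log2 scale under the equal-median scaling, while with the pseudocount the order was turned (0.90 and 0.92). GFI1 and GFI1B have similar zinc fingers, and whether the probe of one gene also detects the transcript of the other was not tested.

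A few measured genes had nearly the same pair of intensities as each of the 3, by the Euclidean distance over the 2 centred log2 intensities. Closest to Gfi1 were Isg20, an interferon-induced exonuclease gene (distance 0.077, log2 difference 1.08), Ccdc136 (0.079 and 1.04) and Sit1, a T cell adaptor gene that dampens receptor signalling (0.096 and 1.25). Closest to Gfi1b were Slc31a2, of the copper transporter family (0.094 and 1.80), Acsf3, an acyl-CoA synthetase gene (0.43 and 1.24), and Chac1, a glutathione-degrading enzyme gene (0.50 and 1.15). Gata3 lay nearest to Wiz, which encodes a zinc-finger partner of the G9a methyltransferase (0.15 and -0.82), Fxyd5, a membrane protein gene (0.20 and -1.26), and Ifi204, an interferon-inducible gene with close relatives that its probe may share (0.21 and -0.82). With 2 arrays, likeness means only that the same levels and difference were read.

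The corepressor partners of GFI1 and GFI1B were described next. Of 23 corepressor genes listed, 15 had a named probe and 12 were measured, and none of the 12 passed 2-fold, against 1.35% higher and 0.270% lower among all measured genes, so a count of 0 is near the background. Of these, 5 had positive and 7 negative log2 differences, with a median of -0.04, against 66.7% positive and a median of 0.11 among all measured genes. Under the 75th percentile scaling 4 were positive, against 49.7% of all measured genes. The sign of the median turned with the level limit, to 0.05 over 14 genes with the limit at the 25th percentile and to 0.11 over 15 with none. Rcor2, a CoREST family gene, had the largest difference, 0.59 (2.65 on bHLH-ER and 3.95 on E47-ER). The histone deacetylase genes Hdac1 (25.1 and 26.7) and Hdac2 (58.3 and 57.5) were bright and nearly equal on both arrays, and Hdac3 stood at 0.33. Hmg20b, a subunit of the LSD1 complex, stood at 0.38. The largest negative value was that of Ajuba (46.7 and 39.8, a difference of -0.21), whose LIM protein is a reported GFI1 cofactor. No probe is named Kdm1a, the LSD1 gene, in the annotation used here.

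Other zinc-finger genes with a SNAG domain were mostly dim. Of 8 listed, 7 had a named probe and 2 were measured, neither past 2-fold. Snai1, of the Snail family, went from 2.09 to 1.81, a log2 difference of -0.19, and Insm2 from 5.73 to 5.55, a difference of -0.03. Their median was -0.11. The other 5 with a probe were under the level limit, among them Snai2 at 0.0303 and 0.0257. With no level limit, 4.99% of 9942 genes passed 2-fold upwards and 4.22% downwards. That base includes the 5563 measured genes, so the shares among dim genes alone are larger.

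Genes reported in other systems as bound or repressed by GFI1 or GFI1B showed the largest differences of the lists. Of 30 listed, 23 had a named probe and 15 were measured. Of these 15, 11 lay above 0, 5 passed 2-fold upwards and 1 downwards, and the median log2 difference was 0.34. Among all measured genes the corresponding shares were 66.7%, 1.35% and 0.270%. Under the 75th percentile scaling 11 of the 15 still lay above 0, where 49.7% of all measured genes did. Socs3 reached the level limit only through its E47-ER value and Flt3 only through its bHLH-ER value, so these had to differ. Of the other 13, 4 passed 2-fold upwards and 1 downwards. The list was written with earlier results of these arrays known, so its count is not independent evidence of a direction or of an excess over the other lists. Every member past 2-fold is one of the fixed genes given under the processing, which were chosen with those results known. Of the fixed genes, Il7r, Rag2 and Spi1 lay within 2-fold. The measured members outside that set, Bak1, E2f5, E2f6, Ets1, Myc and Flt3, all lay within 2-fold.

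The members of that list past 2-fold were an Id gene, SOCS genes, a CDK inhibitor, a recombinase gene and a forkhead gene. Id2, an inhibitor of E proteins, went from 24.2 to 160, a log2 difference of 2.73. Socs3 (0.764 and 3.33, a difference of 2.14) and Socs1 (3.65 and 13.5, a difference of 1.90) encode inhibitors of cytokine receptor signalling. Cdkn1a, which encodes the cell cycle inhibitor p21, went from 1.23 to 2.48, a difference of 1.03. Rag1, of the V(D)J recombinase, went from 52.1 to 104, a difference of 1.01. Both lie just past 2-fold and stood at 0.92 and 0.91 under the 75th percentile scaling, which left 3 higher genes and 1 lower gene. Foxo1, which encodes a forkhead activator, went the other way, from 5.83 to 2.003, a difference of -1.53.

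The remaining members of the target list lay within 2-fold. Rag2, the partner of Rag1, stood at 0.86 and Ets1, an ETS factor gene, at 0.61. Il7r, the interleukin 7 receptor gene and a known GFI1 repression target in T cells, stood at 0.34 (11.5 and 14.4). E2f5 and E2f6, which encode E2F factors, stood at 0.14 and 0.34, and the death effector gene Bak1 at 0.16. Negative differences were those of Flt3 (-0.68), Myc (-0.33) and Spi1 (-0.21, from 5.43 to 4.63), which encodes the myeloid and B cell factor PU.1. At 1.5-fold or more, 7 of the 15 were higher and 2 lower, against 5.41% and 1.24% of all measured genes. The higher count includes Socs3 and the lower count Flt3, which had to differ, so neither count is free of the level limit.

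**Figure D3:**
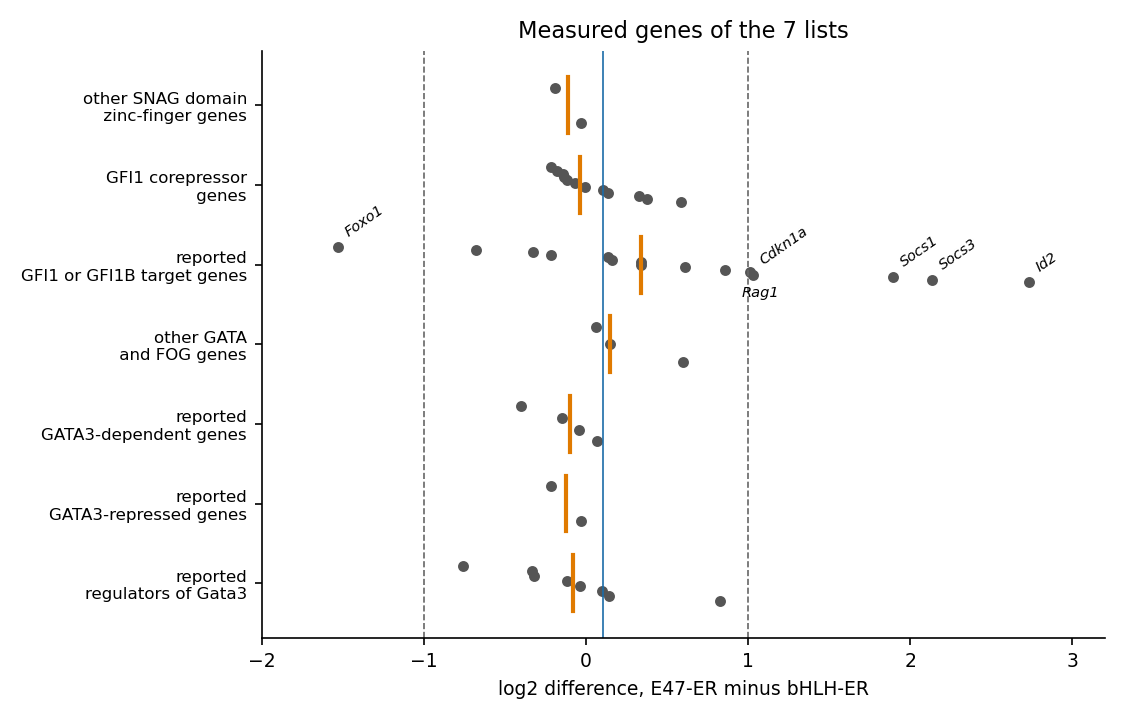
Each grey point is a measured gene of 1 of the 7 lists, placed by its log2 difference, E47-ER minus bHLH-ER (1 array each); vertical placement within a list is arbitrary. Orange bars are list medians, the blue line the median of all measured genes (0.11) and dashed lines 2-fold. Named points are past 2-fold. Every one belongs to the reported GFI1 or GFI1B targets, and to the fixed genes chosen with earlier results of these arrays known. The measured targets outside that fixed set all lie within 2-fold.

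Among the measured genes of the lists around Gata3, none passed 2-fold, which 1.35% of all measured genes did upwards and 0.270% downwards. Of 7 other GATA and FOG genes listed, 6 had a named probe and 3 were measured. Zfpm1, which encodes the GATA cofactor FOG1, stood at 0.60 (1.48 and 2.22), Gata4 at 0.15 and Gata5 at 0.06, with a median of 0.15. Gata5 lay below 0 under the 75th percentile scaling, which left 2 of the 3 positive. Gata1 (0.508 and 0.457) and Gata2 (0.155 and 0.161), the blood cell relatives of Gata3, were under the level limit on both arrays.

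Of 12 reported regulators of Gata3, 8 had a named probe and all 8 were measured, each within 2-fold. Of these, 3 had positive and 5 negative differences, with a median of -0.08, where 66.7% of all measured genes were positive. Under the 75th percentile scaling 2 were positive, against 49.7% of all. Notch3, a Notch receptor gene, had the largest difference, 0.83 (1.06 and 1.86), and Rbpj, the DNA-binding partner of Notch, stood at 0.15. The E protein genes Tcf4 and Tcf12 stood at -0.76 (4.54 and 2.66) and -0.33 (46.9 and 37.0), and the HMG box gene Lef1 at -0.32. No probe is named Tcf3, the gene of E47 itself, in the annotation used here, so the introduced construct could not be checked through it.

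Genes reported to depend on GATA3 in T cells were measured in part. Of 12 listed, 7 had a named probe and 4 were measured, 1 with a positive difference (66.7% among all measured genes), none past 2-fold, and with a median of -0.10. No difference was positive under the 75th percentile scaling (49.7% among all). So few genes do not set the list apart from the background. Bcl11b, a T lineage commitment factor gene, had the largest difference, -0.40 (4.79 and 3.59). The chemokine receptor gene Ccr4 stood at 0.07 and Il5, a T helper 2 cytokine gene, at -0.15 (20.4 and 18.2). Il4 (0.108 and 0.0628) and Zbtb7b (0.259 and 0.265), the CD4 lineage factor gene, were under the level limit. Of 8 genes that GATA3 is reported to repress, 7 had a named probe and 2 were measured, with a median of -0.12. They were Spi1, given above, and the interleukin 12 receptor gene Il12rb2 (-0.03).

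Markers of the cell types in which these factors are best known were checked. All 9 T cell markers with a named probe, of 11 listed, were measured. Their summed deposited intensity was 265 with bHLH-ER and 375 with E47-ER. Of the 9, 8 had positive differences, where 66.7% of all measured genes did, with Cd3e at -0.47. Cd247, at 0.06, was positive by less than the shift of -0.11 under the 75th percentile scaling, where 49.7% of all measured genes were positive. Ptcra, the pre-T cell receptor alpha gene, was the one past 2-fold (2.09), as 1.35% of all measured genes were upwards. Of 10 red cell and platelet lineage markers, 7 had a named probe and 1 was measured, Tal1, at 40.9 and 31.2 of a summed 43.1 and 32.9. Most of both sums is Tal1 alone, so they do not show this lineage by themselves. Klf1 and Gata1 were under the level limit on both arrays. Of 10 myeloid markers, 8 had a named probe and 1 was measured, Itgam (0.866 and 1.44), with sums of 1.57 and 2.18 over the 7 that were positive on both arrays, and Mpo stood at 0.0552 and 0.106. Itgam reached the level limit only through its E47-ER value, so it had to differ upwards. Of 6 B cell markers, Cd79a and Pax5 were measured of 5 with a named probe (sums 17.4 and 14.8), and neither passed 2-fold. Pax5 (1.17 and 0.927) reached the level limit only through its bHLH-ER value. Of 6 NK and cytotoxic markers, 5 had a named probe and none was measured (sums 0.435 and 0.331). Of 5 fibroblast or packaging cell markers, 3 had a named probe and Sparc was measured, at 3.55 and 4.00 of summed 4.05 and 4.68. The part of other cells in the differences of Gfi1, Gfi1b and Gata3 was not tested.

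**Figure D4:**
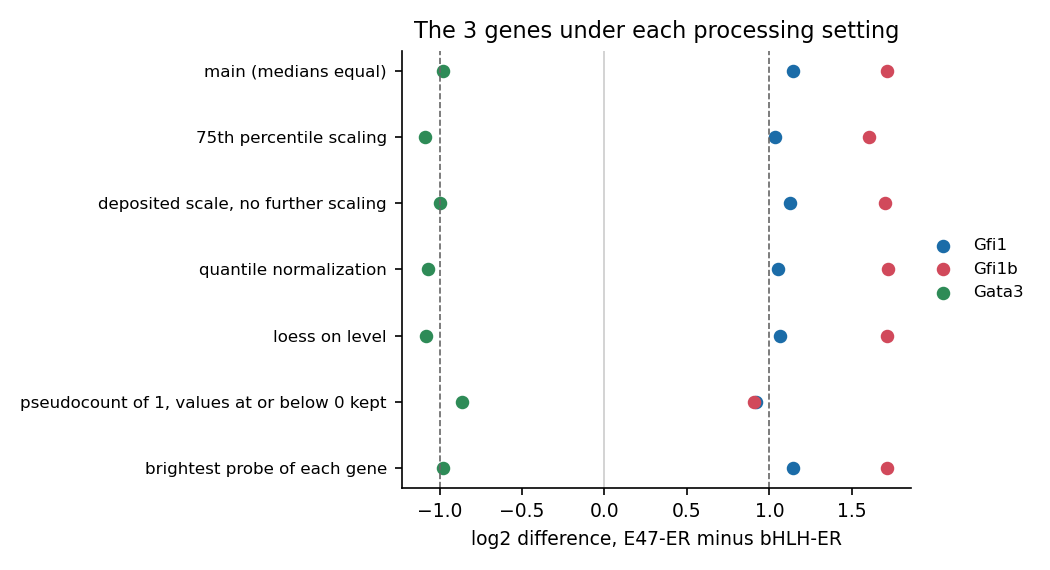
Log2 difference, E47-ER minus bHLH-ER, of Gfi1 (blue), Gfi1b (red) and Gata3 (green) under each of 7 processing settings, 1 array per construct; dashed lines mark 2-fold. Gfi1 runs from 0.92 to 1.14, Gfi1b from 0.90 to 1.72 and Gata3 from -1.09 to -0.86, so each keeps its sign in every setting shown. The brightest-probe setting could not differ from the main one, since each gene has 1 named probe.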

How the data were processed

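The deposited intensities cover 20289 probes, from 1 Cy3 mouse oligonucleotide array for each of the 2 constructs. The authors' intensities are on a linear scale and already carry a background subtraction and a scaling, as the file's values show (medians 0.950 and 0.939, minima -0.0829 and -0.0609); no source used here names the scanner, background method or genome build. There are 173 and 177 missing values and 346 and 180 at or below 0; probes without a positive value on both arrays (668) were left out. For the other 19621, log2 intensities were centred to a median of 0 on each array. The platform annotation names 1 gene for 10349 probes, none has several, and 9940 are unnamed here; all 10349 gene IDs matched RefSeq of GRCm38.p6.

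Probes of a gene were averaged on the log2 scale, and genes with a mean level at or above the median of all probes (an intensity of about 1.03) were called measured. A difference is E47-ER minus bHLH-ER, with 2-fold as the call. Motifs were searched on both strands. The genes and lists were chosen with earlier results of these data known. Named are the 3 genes, for every list at most 5 members past 2-fold in a direction or else the one with the largest difference, 9 fixed genes (Socs1, Socs3, Id2, Il7r, Rag1, Rag2, Foxo1, Cdkn1a and Spi1), and the 3 genes nearest to each of the 3 in level; other list members were chosen after their values were seen. Alternatives varied the scaling, the pseudocount, the level limit and the probe rule. The steps were tested on simulated data. Python 3.11.15, pandas 2.3.3, numpy 2.4.6 and statsmodels 0.14.6 (loess, span 0.4) were used.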

Additional observations from a re-analysis of the deposited data

How the results depend on the processing

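With 1 array per construct no replicate could be left out and no test made. No paired analysis was possible because each construct has 1 array and the titles carry no replicate numbers. The log2 differences of Gfi1, Gfi1b and Gata3 kept their sign under the 6 alternatives that give them a value. Of these, taking the brightest probe could not change them, since each gene has 1 named probe. With a pseudocount of 1 the log2 differences moved by more than the spread between probes for Gfi1 (0.92) and Gfi1b (0.90). The count of genes at least 2-fold lower was 24 rather than 15 with equal 75th percentiles, and 83.3% of calls were higher in the main setting against 68.4% there. With the pseudocount, 40 were higher and 5 lower. A level limit at the 25th percentile gave 129 and 53, one at the 75th 25 and 4, and none 496 and 420, since more or fewer dim genes were counted. The 25th percentile limit also moved the median of the reported GFI1 or GFI1B targets from 0.34 to 0.61 over 19 genes. The other 84 comparisons with alternatives moved by less than the probe spread or, for counts, by less than 1.5 times. Dim probes limit what can be read for Gfi1b, whose control intensity lies under the level limit. With the level limit at the 75th percentile, no gene of 3 lists was left, namely the other SNAG domain genes, the other GATA and FOG genes and the reported GATA3-repressed genes. Background correction and slide as a block could not be varied, since the table holds corrected values from 1 array per construct.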

Other observations

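Of 25 list members under the level limit, 6 differed by 2-fold or more, 5 higher and 1 lower, and all 6 are given. Cbfa2t3, which encodes the ETO family corepressor ETO2, went from 0.543 with bHLH-ER to 1.19 with E47-ER, a log2 difference of 1.15. Bcl2l1, the survival gene that encodes BCL-XL, went from 0.718 to 1.45, a difference of 1.03. Irf8, a myeloid and B cell factor gene, went from 0.282 to 0.786, a difference of 1.49, and Stat4, which GATA3 is reported to repress, from 0.153 to 0.390, a difference of 1.37. Meis1, a homeobox gene, went from 0.0175 to 0.0549, a difference of 1.66. Cebpa, a myeloid factor gene listed both as a GFI1 target and as repressed by GATA3, was the lower one, from 0.0552 to 0.00358, a difference of -3.93 between values near 0. With no level limit, 496 of 9942 genes (4.99%) passed 2-fold upwards and 420 (4.22%) downwards. These include the 5563 measured genes, of which only 75 and 15 passed, so the shares among dim genes alone are larger. Differences of this size are thus common among dim probes, and the 6 of 25 are not shown to be an excess.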
